A study of Mus musculus and Mus spretus with 18 samples.

Results

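Gene expression in the newborn brain was compared between 2 mouse species, Mus spretus and Mus musculus, called spretus and musculus from here on. The comparison took the arrays whose titles give a spretus or a musculus brain at 0 days of age, 3 of each species, which are 6 of the 18 arrays of the series, and covered all 12346 genes with a value. The spretus animals were of the strain SPRET/EiJ and the musculus animals of the strain WSB/EiJ, both inbred strains derived from wild mice. All were males, untreated and without an engineered allele as far as the labels go, and their brains were taken without the olfactory bulb within a day of birth (day 0). The other 12 arrays hold brains of the same strains at day 14 and at day 56, 3 per strain and age. Each array held the RNA of 1 animal. Each species is represented by 1 inbred strain, so a difference between species and one between these strains cannot be told apart. Litter and hour of birth are not given, and the p-values measure only the spread between these animals. In whole brain, fewer cells of a type and less RNA per cell cannot be told apart either.

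The mouse brain is immature at birth: the neurons of the cerebral cortex have largely been formed, while most granule neurons of the cerebellum, most glia, synapses and myelin appear in the weeks that follow. The array reads each gene with short DNA probes designed on the sequence of laboratory mice, and a base that differs between probe and RNA weakens their binding. The authors deposited a list of probes that they masked, and the number of masked probes is given beside each gene named here. Why these probes were masked is not stated in the labels or the files. The files identify genes by Ensembl ID and do not pair the IDs with names. No ID could be matched to a symbol in the reference table, so brain cell type markers and pathways could not be examined, and the labelled tissue was not checked against its markers. Genes are described as groups, with 2 IDs per direction as examples of each test.

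The 6 arrays were close in their overall profile. Their medians lay between 6.53 and 6.56 on the log2 scale. Across genes, the musculus arrays correlated with each other at r of 0.993 to 0.994 and the spretus arrays at 0.995, and arrays of different species correlated at 0.987 to 0.989. The SD between the 3 animals of a group had a median over genes of 0.12 (log2) in musculus and 0.11 in spretus. 

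At birth, a species difference was called in about 1 in 7 genes, mostly of small size and about as often in either direction. The share called went with masked probes, from 5.28% of genes without one to 32.6% of those with 7 or more. A gene was called when its difference passed limma's test at an adjusted p under 0.05 over all genes. By this rule 918 genes (7.44% of those tested) were higher and 852 (6.9%) were lower in spretus, together 14.3%. The genes called higher had a median log2 difference of 0.44, a 1.36-fold difference, and those called lower of -0.49, or 1.40-fold. The smallest differences that passed were 0.21 and -0.21. These medians describe genes that had to pass the test, so they are larger than the differences of all genes, with quartiles of -0.12 and 0.15 and a median of 0.02. Among the 1770 called genes, the 3 values of one species all lay above the 3 of the other in 1727, against 30.6% of all genes. The call and the separation rest on the same newborn values, so this count gives the calls no further support.

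**Figure D1:**
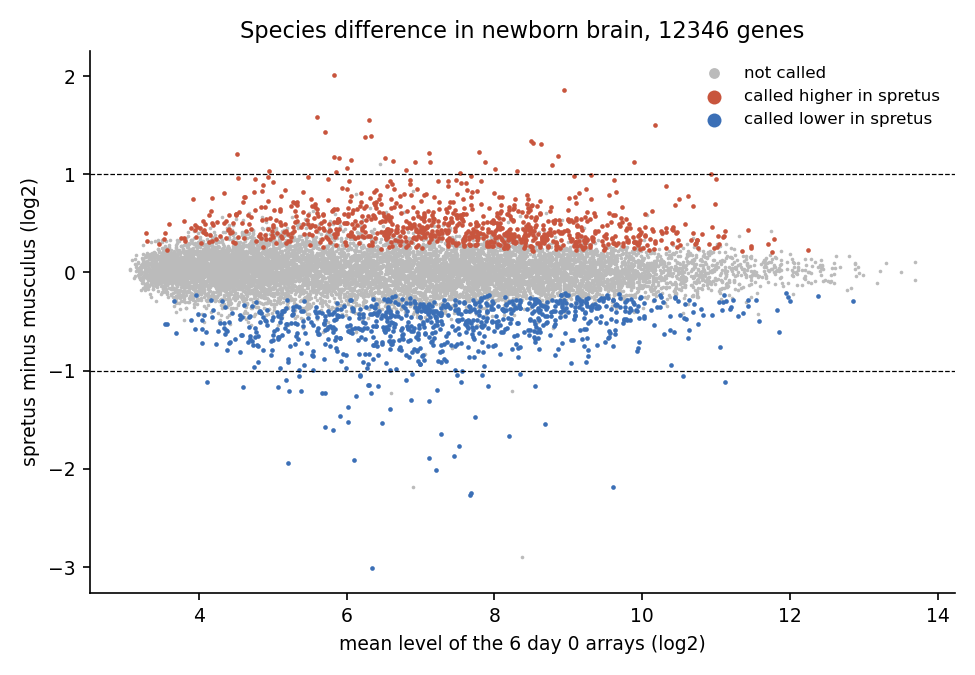
Each point is 1 of 12346 genes, with the mean log2 level over the 6 day 0 arrays on the x axis and the log2 difference, spretus minus musculus, on the y axis. Coloured points passed limma's test (918 higher, 852 lower in spretus), and the dashed lines mark 2-fold differences, which 33 called genes exceeded upwards and 51 downwards.

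Large differences were few and more of them were downward in spretus. Differences of at least 1.5-fold were called for 228 genes higher and 289 lower. Differences of at least 2-fold were called for 33 genes higher (0.267%) and 51 lower (0.413%), and of at least 4-fold for 1 and 5. In 76 of the 84 genes with at least a 2-fold difference the level of the dimmer species stayed above 4.76, the limit below which the dimmest 25% of genes lie, so both sides were measured above the dimmest levels. In the other 8 genes the dimmer species, musculus in 2 and spretus in 6, lay under that limit.

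The largest difference of all was in ENSMUSG00000021693, a gene with 12 masked probes. Its log2 levels were 7.66, 7.91 and 7.97 in the musculus newborns and 5.23, 4.57 and 4.70 in the spretus newborns. The lowest musculus value lay far above the highest spretus value. The difference was -3.01 ± 0.18 (SE), or 8.06-fold lower in spretus (limma, adjusted p = 1.43e-08). The spretus mean of 4.83 ± 0.35 (SD, n = 3) lay close to the limit of the dimmest genes.

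ENSMUSG00000023571, with 16 masked probes, was measured well above that limit in both species. Its levels were 8.81, 8.81 and 8.77 in musculus and 6.41, 6.48 and 6.72 in spretus. The musculus animals differed among themselves by less than 0.1, and the groups were wholly apart. The difference was -2.26 ± 0.11 (limma, adjusted p = 1.32e-09), which is 4.79-fold lower in spretus.

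The genes with the largest upward differences stood at different levels. ENSMUSG00000032115, with 13 masked probes, was dim in musculus, at 4.43, 5.00 and 5.04, and reached 6.84, 6.70 and 6.95 in spretus. Its difference was 2.01 ± 0.17 (limma, adjusted p = 8.28e-07), or 4.02-fold. The musculus mean of 4.82 ± 0.34 (SD, n = 3) lay near the dim limit. ENSMUSG00000033392, with 16 masked probes, was bright in both species, at 7.99, 7.88 and 8.17 in musculus and 10.01, 9.90 and 9.70 in spretus. It was higher in spretus by 1.86 ± 0.14 (limma, adjusted p = 2.73e-07), or 3.62-fold. In each of these 4 genes the 2 groups did not overlap at day 14 or at day 56 either.

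**Figure D2:**
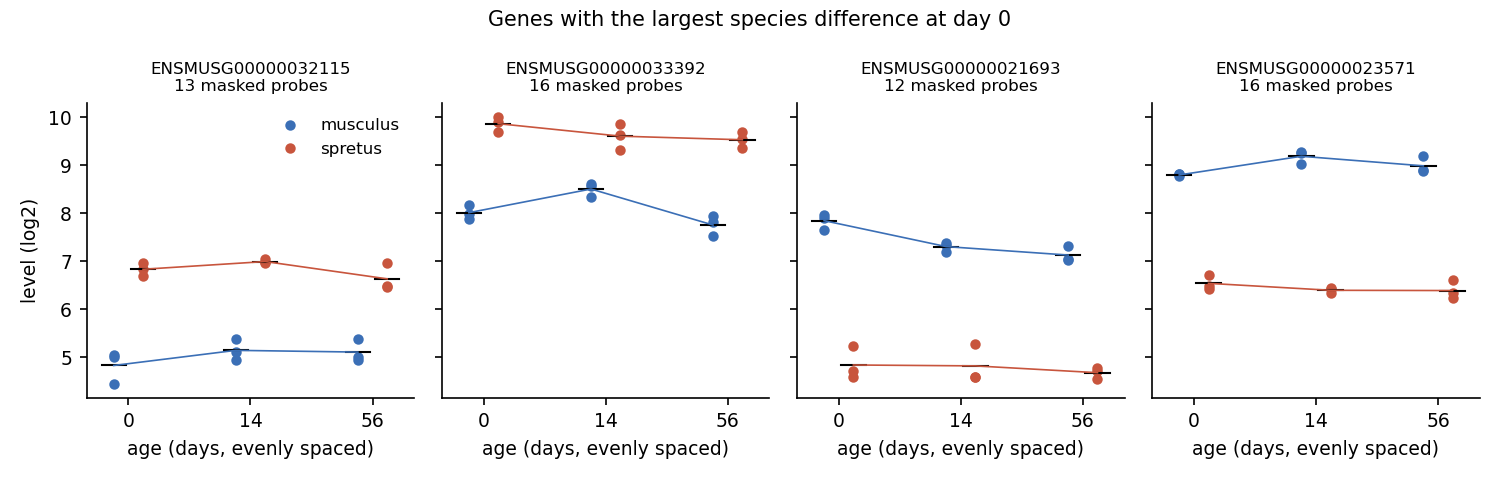
Log2 level of the 2 genes with the largest upward and the 2 with the largest downward difference called in spretus at day 0, for every array by age (ages evenly spaced), with a point per animal, a black bar for each mean of 3 and a line joining the means. Species stay apart at all 3 ages, by 2.01, 1.86, -3.01 and -2.26 (log2) at day 0 in the order shown.

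Beyond these examples, the 12 largest called differences upward, counted with those just named, ran from 1.23 to 2.01 and the 12 largest downward from -1.64 to -3.01. The upward genes had 0 to 28 masked probes with a median of 12, and the downward genes 1 to 18 with a median of 5. Of the upward genes 10 were called higher in spretus at both later ages, and of the downward genes 9 were called lower at both. Over all genes, 6.84% were called higher at day 14 and 7.59% at day 56, and 6.3% and 6.71% lower. The share called at both ages cannot exceed these. In none of the 12 upward genes and in 1 of the 12 downward genes did the dimmer species lie under the dim limit.

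How often a gene was called followed the number of its masked probes. The number of probes kept per gene is not given, so the masked share of a gene's probes is unknown. The part of the total probe number in this relation was not tested. Among the 3221 genes with no masked probe 5.28% were called (exact binomial 95% interval 4.53 to 6.11). The share was 11.5% among 4730 genes with 1 to 2 masked probes, 19.7% among 2894 with 3 to 6 and 32.6% (30.2 to 35.0) among 1501 with 7 or more. The intervals treat genes as independent, which they are not. The size of the difference followed too. The root mean square difference, with the variance between animals subtracted, was 0.13 (log2) without a masked probe, 0.21 with 1 to 2, 0.27 with 3 to 6 and 0.38 with 7 or more. Of the 84 genes with at least a 2-fold difference, 35 had 7 or more masked probes, a class that holds 12.2% of all genes, and 2 had none.

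Masked probes went with the level of expression, since genes without one had a median level of 4.73 and genes with 7 or more of 8.05. The relation was therefore read within 4 equal classes of genes by their mean level over all arrays, and it was there in each class. In the dimmest class the share called went from 2.42% without a masked probe to 28.1% with 7 or more, though only 32 dim genes had so many (interval 13.7 to 46.7). In the second class it went from 5.50% to 40.1%, in the third from 10.6% to 32.8% and in the brightest from 12.7% to 30.4%. Without a masked probe, bright genes were called more often than dim ones.

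**Figure D3:**
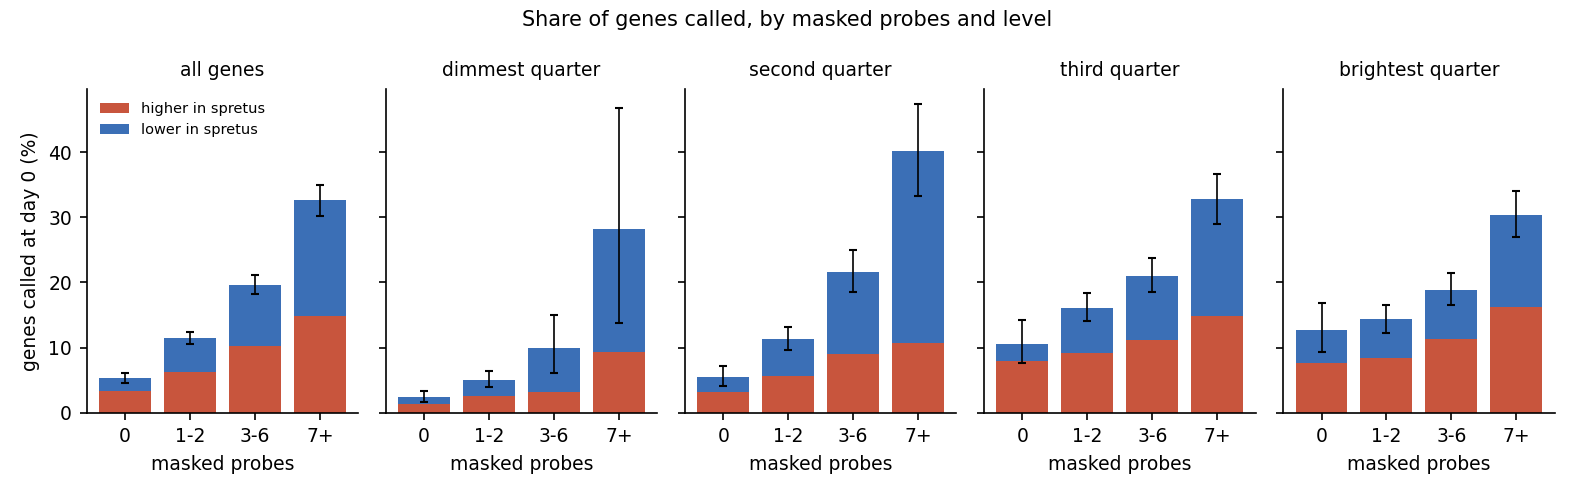
Percent of genes called at day 0, stacked as higher (red) and lower (blue) in spretus, by number of masked probes, over all genes and within 4 equal classes by mean level. The error bars are exact binomial 95% intervals of the total, which was 5.28% without a masked probe and 32.6% with 7 or more over all genes.

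The direction of the calls shifted with masked probes as well. Of the called genes, 37.6% were lower in spretus where no probe was masked, 45.6% with 1 to 2 masked probes, 48.2% with 3 to 6 and 54.6% with 7 or more. Between genes without and with 7 or more masked probes these shares went from 41.0% to 66.7% in the dimmest class, with 9 calls behind the latter, from 42.0% to 73.4% in the second, from 25.6% to 54.6% in the third and from 40.5% to 46.8% in the brightest. The median difference of all genes of a class, called or not, went from 0.03 without a masked probe to -0.03 with 7 or more. The part of base differences at the remaining probes in these calls was not tested.

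Among genes with no masked probe, 106 were higher and 64 lower in spretus. Their differences were smaller: the 5 largest upward ran from 0.68 to 1.43 and the 5 largest downward from -0.83 to -1.05. When these genes were tested alone, without the others in the adjustment, 33 were called higher and 16 lower. The 170 calls among these genes in the main fit were fewer with each newborn left out, which also leaves a smaller group. They numbered 145, 126 and 102 without musculus newborns 1, 2 and 3. Without spretus newborns 1, 2 and 3 they numbered 140, 107 and 104.

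Most differences seen at birth pointed the same way in the older animals, which were other mice on other arrays. Those arrays read the same strains with the same probes. The part of base differences at the probes in this agreement was not tested. Of the 918 genes higher in spretus at day 0, 86.3% were also higher in 14-day-old and 85.0% in 56-day-old brains, against 56.4% and 51.6% of all genes. Of the 852 genes lower at day 0, 87.6% and 83.2% were lower at these ages. The sizes were smaller later. The genes called higher had a median difference of 0.44 at birth, which was 0.23 at day 14 and 0.25 in adults of day 56, and the genes called lower of -0.49, -0.28 and -0.26. The day 0 medians are raised by the choice of genes on the same values, while the later ones are not.

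Fewer genes passed the test at every age. Of the genes higher at day 0, 235 were called higher at both later ages, 227 at one and 456 at neither, where 6.84% of all genes were called higher at day 14 and 7.59% at day 56. Of the genes lower at day 0, 252 were called lower at both later ages, 219 at one and 381 at neither, where 6.3% and 6.71% of all genes were called lower. A call in the opposite direction at a later age was made for 13 of the genes higher at day 0 and for 18 of those lower. Of the 33 genes at least 2-fold higher at birth 25 were called higher at both later ages, and of the 51 at least 2-fold lower 32 were called lower. Of these 33 and 51 genes, 8 and 12 had at least a 2-fold difference at both later ages.

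To find genes in which the newborn difference was not that of later life, the difference at day 0 was tested against the mean of those at day 14 and day 56. This test was passed by 330 genes, 2.67% of all, with the newborn value above the later one in 161 and below it in 169. They fell into 4 kinds. In 140 genes a difference was called at day 0 and at neither later age, with 68 higher and 72 lower in spretus. Their median size was 0.56 at day 0 and 0.11 for the later mean. A missing call does not show that the species were alike. In 115 genes the species were not called apart at day 0 but were called apart later, with a median size of 0.19 at day 0 and 0.48 later. In 62 genes a difference was called at day 0 and later: in 30 of them with the opposite sign at a later age, in 24 on the same side but larger at birth, and in 8 smaller at birth. The last 13 genes were called at no single age. Against day 14 alone the newborn difference passed in 137 genes (1.11%) and against day 56 alone in 283 (2.29%). These tests share the newborn arrays. The sizes at day 0 and later enter the test and are given as a description.

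The number of such genes fell with each newborn left out, which also leaves a smaller group. It was 299, 245 and 158 without musculus newborns 1, 2 and 3, and 209, 174 and 204 without spretus newborns 1, 2 and 3. The 140 genes called at birth alone became 121, 96, 59, 82, 63 and 81 in the same order. Of 806 genes called at day 0 and at neither later age, 140 passed the test. For the others a change of the difference after birth was not shown. The share that passed also followed masked probes, with 1.06% of genes without one (34 genes), 2.37% with 1 to 2, 3.63% with 3 to 6 and 5.26% with 7 or more (79 genes). Between genes without and with 7 or more masked probes it went from 0.43% to 3.125% in the dimmest class. It went from 1.32% to 6.60% in the second, 2.17% to 4.52% in the third and 2.12% to 5.64% in the brightest. In the dimmest and brightest classes it did not rise at every step. In a fit of the unmasked genes alone, 4 passed.

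**Figure D4:**
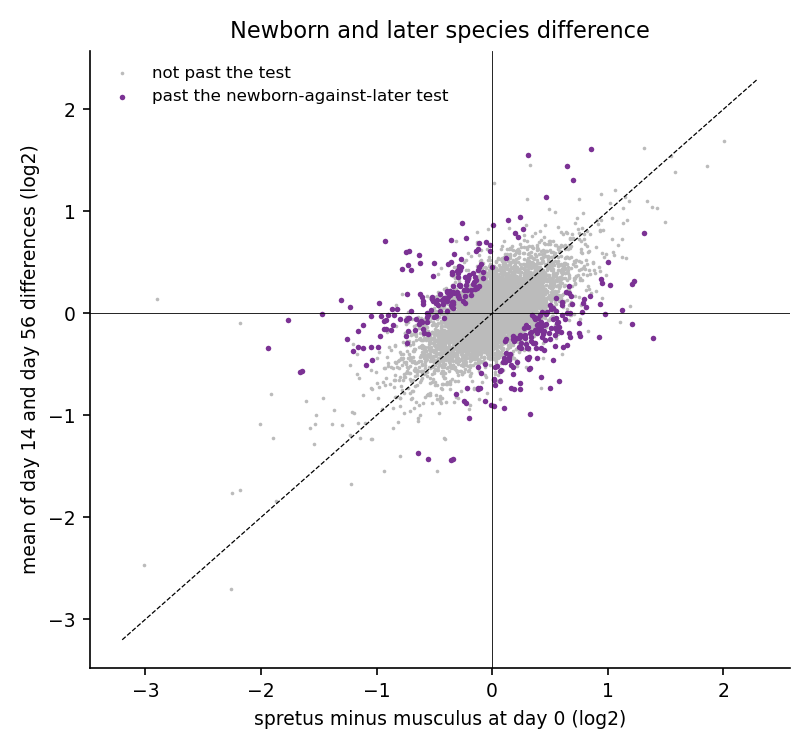
Each point is a gene, with its log2 species difference at day 0 on the x axis and the mean of its differences at day 14 and day 56 on the y axis, and the dashed line marks equal values. The 330 purple genes passed the test of the newborn against the later difference, 161 to the right of the line and 169 to its left.

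Among genes also called at day 0, the newborn difference lay farthest above the later one in the following gene. Its spretus mean at birth was 7.03, below the later spretus means. This gene, ENSMUSG00000020932, with 10 masked probes, stood at 6.01, 5.38 and 5.53 in musculus newborns and at 6.87, 7.09 and 7.13 in spretus newborns. The spretus values were all higher, by 1.39 ± 0.17 on average (limma, adjusted p = 3.26e-05). At day 14 its means were 7.45 ± 0.42 (SD, n = 3) for musculus and 7.36 ± 0.01 for spretus, and at day 56 they were 7.93 ± 0.09 and 7.54 ± 0.03. The newborn difference exceeded the later mean by 1.63 ± 0.21 (limma, adjusted p = 0.000509).

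ENSMUSG00000009376, with 9 masked probes, was also called higher in spretus at birth and not at later ages. It stood at 6.32, 6.69 and 6.53 in musculus newborns and at 7.83, 7.86 and 7.49 in spretus newborns, a difference of 1.21 ± 0.13 without overlap (limma, adjusted p = 1.59e-05). At day 14 the musculus mean was 7.12 ± 0.07 and the spretus mean 6.81 ± 0.14, and at day 56 both were near 6, at 5.96 ± 0.24 and 6.05 ± 0.18. Its newborn excess was 1.32 ± 0.16 (limma, adjusted p = 0.000509).

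Among genes also called at day 0, those whose newborn difference lay farthest below the later one had means of at most 4.84 in the older brains of either species, near or under the dim limit. ENSMUSG00000029510, with 2 masked probes, stood at 8.34, 8.46 and 8.42 in musculus newborns and at 6.69, 7.23 and 6.0 in spretus newborns. The spretus animals varied more, with an SD of 0.62 against 0.06, and all lay below the musculus animals. The difference was -1.76 ± 0.22 (limma, adjusted p = 3.64e-05) and its departure from the later mean -1.70 ± 0.26 (adjusted p = 0.00279). The gene was below the dim limit in both species at later ages, at 3.94 and 3.81 at day 14 and at 3.71 in both at day 56, so the later difference was between levels at the bottom of the range.

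ENSMUSG00000018919, with 3 masked probes, had levels of 6.06, 6.32 and 6.16 in musculus newborns and of 4.10, 4.63 and 4.0 in spretus newborns. The difference was -1.93 ± 0.17 (limma, adjusted p = 1.53e-06), and the spretus values were under the dim limit. The musculus mean went from 6.18 ± 0.13 at birth to 4.84 ± 0.09 at day 14 and 4.51 ± 0.08 at day 56. The spretus mean was 4.24, 4.40 and 4.26 at the same ages, under the dim limit throughout. The newborn difference minus the later mean was -1.59 ± 0.21 on the log2 scale (limma, adjusted p = 0.000716).

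**Figure D5:**
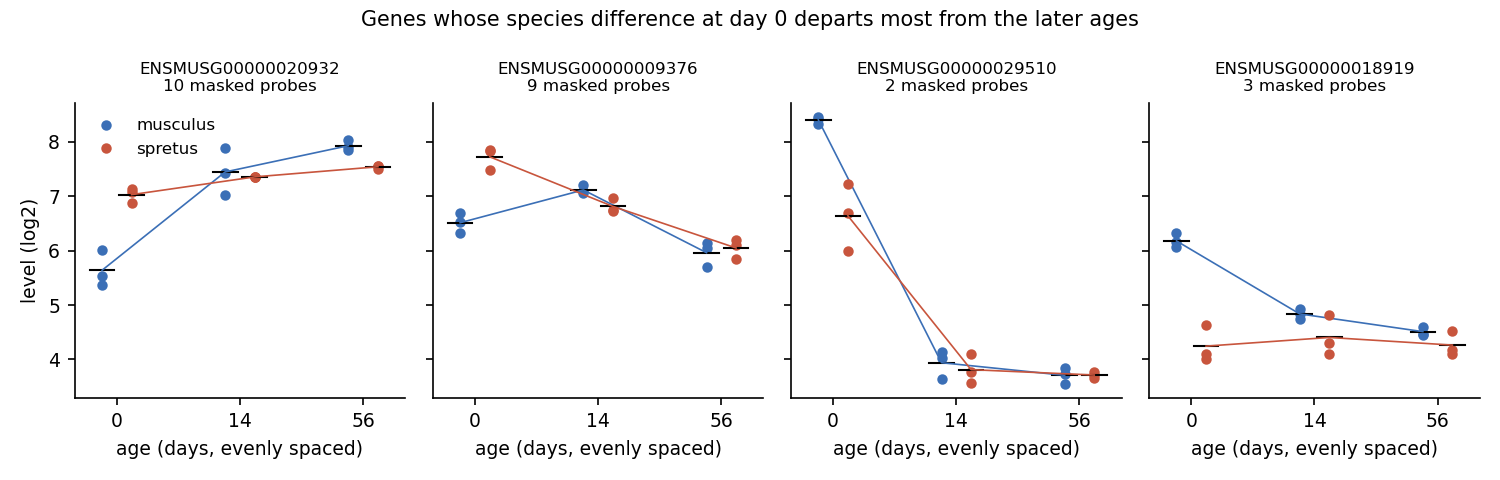
Log2 level of the 2 genes whose day 0 species difference lies farthest above and the 2 whose difference lies farthest below that of later ages, among genes also called at day 0, for every array by age (ages evenly spaced), with a point per animal and a black bar for each mean of 3. Groups are apart at day 0, where the differences are 1.39, 1.21, -1.76 and -1.93 (log2), and the means lie closer at days 14 and 56.

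The newborn brains were then described by genes that go on changing after day 14, which were chosen from arrays of days 14 and 56 and share no array with day 0. In both species 203 genes rose and 297 fell from day 14 to day 56. In the rising genes the newborn level minus the mean of the same species at day 56 had a median of -0.92, -1.06 and -0.91 in the musculus arrays and of -0.995, -1.02 and -0.985 in the spretus arrays (log2). The groups overlapped, and the gap of -0.04 between their means was smaller than the spread between animals and took the other sign with array weights (0.0486). In the falling genes the newborn level lay above that of day 56 by 0.61, 0.64 and 0.60 in musculus and by 0.70, 0.69 and 0.67 in spretus. All spretus values were higher, and the means differed by 0.07 with a pooled SD of 0.02. The animals of a species share 1 reference mean, whose own error is not in this SD. The median levels of these genes at birth overlapped, at 8.79, 8.78 and 8.78 in musculus and 8.81, 8.78 and 8.78 in spretus.

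Measured from day 14 in place of day 56, the newborn level of the falling genes lay above by 0.11, 0.11 and 0.09 in musculus and by 0.27, 0.25 and 0.26 in spretus, again without overlap. In a fit of the unmasked genes alone, the falling set held 17 genes, and the gap between the species was 0.0396 from day 14 and 0.158 from day 56. The later reference values are means of the arrays that chose the genes. At birth itself, 46 of the 297 falling genes were called higher in spretus and 17 lower, that is 15.5% and 5.72%, against 7.44% and 6.9% of all genes. Their median difference was 0.06, against 0.02 over all genes. Of the 203 rising genes 27 were higher and 22 lower, with a median of 0.05. Both sets are brighter than most genes and had a median of 3 masked probes against 2 over all genes, and the part of these features in the counts was not tested. Neither count of falling genes is firm. When the dimmest 25% of genes were left out, 65 were higher and 30 lower in spretus. With trend and robust moderation 67 were higher and 27 lower. Both settings also changed which genes were in the set.

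A few genes with large mean differences were not called. There were 5 genes at least 2-fold apart between the means but not past the test, 1 higher and 4 lower in spretus. In each of them the SD of the wider group was between 1.42 and 4.04 on the log2 scale, against a median over genes of 0.12 in musculus. The widest, ENSMUSG00000020713, had an SD of 4.04 in musculus and 3.28 in spretus newborns.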

How the data were processed

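Total RNA of each brain was hybridised as labelled cRNA to 1-colour Affymetrix mouse arrays, per the labels' protocols and the series' design text. The authors deposited log2 values, 1 per Ensembl gene and array, already normalized between arrays. The log base was inferred from their range. The method of background correction, normalization and summarisation is not given in the sources used here, nor is a batch. The other deposited table lists 46864 masked probes by array position and served to count the masked probes of each gene. It also lists 3307 gene probe sets without a value.

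Groups came from the sample titles. A mean per group was fitted to all 18 arrays with limma 3.58.1 in R 4.3.3 (12 residual degrees of freedom, 17.1 after moderation), with two-sided tests and Benjamini-Hochberg adjustment over all 12346 genes within each comparison. Contrasts were spretus minus musculus at each age, and the day 0 difference minus the mean of the later ones. Genes were named by a rule that took the largest differences among called genes without overlap between groups, at 2 IDs per direction. Of 37 gene lists by symbol, 0 had a member that could be matched, so none was run. The comparison and the lists were chosen with earlier results of these data known.
The fit was tested on simulated data. Alternatives covered normalization, dim genes, moderation, array weights, a replicate block, masked genes, the threshold and each left-out newborn. The number of arrays limits the precision.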

Additional observations from a re-analysis of the deposited data

Results flagged for a closer look

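The species difference changed between the newborn and the later ages in 330 genes by limma's test of that change, and 2 examples in each direction are those of the largest size among genes also called at day 0. The newborn difference minus the later mean was 1.63 for ENSMUSG00000020932 and 1.32 for ENSMUSG00000009376, where spretus was higher at birth. It was -1.70 for ENSMUSG00000029510 and -1.59 for ENSMUSG00000018919, where spretus was lower at birth. For ENSMUSG00000029510 the means of both species lay under the dim limit of 4.76 at days 14 and 56. For ENSMUSG00000018919 the spretus mean lay under it at all ages. The part of this limit in both values was not tested. Each of the 4 passed the test against day 14 alone (adjusted p = 0.00471, 0.0011, 0.0142 and 0.00524 in this order) and against day 56 alone (0.00111, 0.0051, 0.00541 and 0.00235). The 4 were chosen by the mean of these 2 comparisons on the same arrays, so the single comparisons give them no further support. Groups of 3 animals were not searched for outlying samples by a formal rule.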

How the results depend on the processing

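The 8 genes named by the rule kept direction and call in each alternative in which they were tested. The largest adjusted p (limma) was 0.0035 for day 0 and 0.00955 for the test of the newborn against the later difference, both in ENSMUSG00000029510. These genes were chosen for the largest called differences in the same arrays, so their stability does not speak for the other calls. A stricter threshold lowers counts of calls by construction, and other causes of the changes were not tested. Without the dimmest 25% of genes the counts were higher, at 1835 calls for day 0 and 386 for the newborn test. At an adjusted p under 0.01 the day 0 calls were 891, with 436 higher and 455 lower, 56 among unmasked genes and 291 among those with 7 or more masked probes (489 before). The newborn test then gave 79 genes (36 above, 43 below the later value), 40 of them called at day 0 alone, calls at all ages numbered 108 higher and 118 lower, and the rising genes held 14 higher and 11 lower. Leaving out genes with 7 or more masked probes gave 1135 calls, 611 higher and 524 lower, 18 and 31 of them at least 2-fold, 131 and 114 called at all ages, and 17 rising genes higher. The newborn test then gave 214 (99 above), 88 at day 0 alone. Among unmasked genes tested alone, 49 were called, 33 higher and 16 lower, 1 and 1 at least 2-fold, 7 and 3 at all ages. The newborn test there gave 4, with 0 above and 4 below the later value and 2 at day 0 alone, where limma's unadjusted p under 0.05 gave 125 above and 135 below. Of 14 rising genes there limma called 0 higher and 0 lower (2 and 1 by unadjusted p) and of 17 falling genes 1 and 0 (3 and 2).

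With an animal left out, day 0 calls were 1227 to 1515 (622 to 772 higher, 605 to 743 lower), 33 to 39 and 50 to 60 at least 2-fold, 102 to 145 unmasked and 361 to 414 with 7 or more masked probes. The newborn test gave 158 to 299 (77 to 152 above, 78 to 147 below), 59 to 121 at day 0 alone. Calls at all ages were 194 to 212 higher and 199 to 220 lower, and the rising and falling genes held 21 to 30 and 37 to 56 higher and 15 to 23 and 14 to 20 lower.

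The gap of the falling genes from day 56, 0.07, was 0.0868 with the replicate block, 0.16 with unmasked genes alone and 0.06 to 0.08 with an animal left out. From day 14, 0.16, it was 0.14 after quantile normalization, 0.14 without genes with 7 or more masked probes, 0.0396 with unmasked genes alone and 0.15 to 0.16 with an animal left out. The rising genes' gap from day 56, -0.04, was 0.0486 with array weights, 0.0731 with unmasked genes alone and -0.07 to -0.03 with an animal left out, so its sign is not settled. From day 14, 0.00607, it was -0.02 to 0.02 with an animal left out, 0.0341 with array weights and 0.0267 with unmasked genes alone. Falling genes lower at day 0 numbered 30 without the dimmest 25% and 27 with trend and robust moderation. Those higher at day 0 numbered 65 and 67 in these settings.

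Deviations from the group means correlated at -0.16, -0.09 and -0.16 in the same-numbered pairs 1, 2 and 3. In pairs with different numbers they correlated at 0.03 to 0.13. The deviations within a group cancel, which ties these values to one another. Whether animals with the same number shared a batch is not given. With the replicate block 1701 genes were called at day 0. With the 6 day 0 arrays alone 1326 were. The share of calls that were higher, 51.9%, was 67.3% among unmasked genes alone.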

Other observations

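A set of 3 genes that were not called varied together from animal to animal at birth rather than with species. They were chosen after their values were seen. ENSMUSG00000020713, with no masked probe, stood at 11.70, 5.18 and 12.57 in the musculus newborns and at 4.75, 10.69 and 5.32 in the spretus newborns (log2, replicates in order). ENSMUSG00000020660, also with no masked probe, stood at 9.36, 4.99 and 9.61 and at 5.04, 7.26 and 5.09. ENSMUSG00000028298, with 1 masked probe, stood at 7.64, 5.24 and 8.76 and at 5.31, 7.48 and 5.15. In all of them musculus replicates 1 and 3 and spretus replicate 2 were high and the other newborns low. At day 14 ENSMUSG00000020713 stood at 6.95 in musculus replicate 3 and at 6.98 in spretus replicate 1. ENSMUSG00000028298 stood at 6.345 and 6.48 in musculus replicates 1 and 3 of that age. No other day 14 value in these genes exceeded 5.6645. At day 56 no animal of either species exceeded 5.93 in them. Without musculus day 0 replicate 2 each would be called lower in spretus, by -5.22, -3.68 and -2.22 (limma, adjusted p = 0.00989, 8.19e-05 and 0.0103). With all 6 animals the adjusted p-values were 0.248, 0.0899 and 0.249. Without spretus day 0 replicate 2 the first and second would also be called, and the third not (0.0416, 0.0392 and 0.0546). The genes were chosen with the values of these animals seen, so calls without them give no support to a species difference.

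In the other 2 genes that were at least 2-fold apart but not called, single animals stood out. ENSMUSG00000035383, with 2 masked probes, was at 6.02 in spretus day 0 replicate 3 and between 8.24 and 8.98 in the other newborns. ENSMUSG00000075394, with no masked probe, ranged from 4.49 to 7.76 within the musculus newborns. Without spretus day 0 replicate 3 the difference of ENSMUSG00000035383 shrank from -1.20 to -0.39 (limma, adjusted p = 0.354), and it was called without spretus day 0 replicate 2 (-1.71, adjusted p = 0.0151). That of ENSMUSG00000075394 was 1.10 with all animals, 2.04 without musculus day 0 replicate 1 (limma, adjusted p = 0.00822) and 0.40 without musculus day 0 replicate 2 (adjusted p = 0.756). In these 2 genes as well, calls with an animal left out give no support to a species difference. Over all genes, the musculus day 0 replicate 1 lay at least 1 above the median of its group in 11 genes and the other newborns in 0 to 5.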
